A study of Mus musculus with 6 samples.

Results

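The genes described here encode the proteases and receptors by which mast cells are recognised: Cma1, Mcpt4, Tpsb2, Tpsab1, Cpa3, Fcer1a, Ms4a2, Hdc, Mrgprb1 and Kit. They were taken by name as a fixed list of 10 genes, out of 33924 genes in the table, by a rule that sets no threshold on a measured value. All 10 were found, and all 10 had a mean of at least 10 normalized counts, as had 17975 of the 33924 genes. Counts of genes reaching 10 in the lists below are to be read beside that share. RNA had been sequenced from RPE/choroid of C57BL/6J mice, the retinal pigment epithelium together with the vascular layer beneath it, in 3 young and 3 aged libraries. The labels give the young mice as 1 to 2 months old, and the aged mice as 20 to 24 months in the titles but 22 to 24 months in the time label. The methods give the young mice a higher age than the labels do, and name both sexes where the labels say male only, so age and sex are uncertain. Each library was made from total RNA of 2 eyes after removal of ribosomal RNA, and the labels name no transgene and no treatment. The table holds for each gene 1 mean over all 6 libraries and no value per library, so the levels below describe the tissue with young and aged mice pooled. No level carries an SD or n, the depth per library is unknown, and young and aged mice were not compared. Per kilobase values rest on the assumption that the deposited means had not already been divided by transcript length, which the sources leave unclear. In the undivided means all 10 genes change place, and Kit has the highest mean.

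Mast cells are tissue-resident cells that store histamine and proteases in granules and release them within minutes when antigen cross-links IgE on their surface. They mature in the tissue under Kit, the receptor for stem cell factor, and those of connective tissue, including the choroid, carry chymases, tryptases and carboxypeptidase A bound to heparin. The genes Cma1 and Mcpt4 encode chymases, Tpsb2 and Tpsab1 tryptases, Cpa3 a carboxypeptidase and Hdc the enzyme that makes histamine, while Fcer1a and Ms4a2 encode the alpha and beta chains of the high-affinity IgE receptor and Mrgprb1 a G protein-coupled receptor.

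Transcripts of the mast cell genes lay on both sides of the median gene of this tissue. The highest per length was Cma1, with a mean of 361 normalized counts, or 336 per kilobase of transcript. It was followed by Cpa3 at 199, Tpsb2 at 195, Mcpt4 at 179 and Kit at 146 normalized counts per kilobase. These 5 lay above the median of 115 normalized counts per kilobase over the 17581 genes with a length and a mean above 0, and the other 5 lay below it. Fcer1a stood at 71.7, Hdc at 59.0, Tpsab1 at 26.5, Mrgprb1 at 20.9 and Ms4a2 at 15.8 normalized counts per kilobase. With transcript length, the 4 granule proteases other than Tpsab1 took the first places, and Kit came before Cpa3 when coding length was used. Cpa3 and Tpsb2 were nearly equal, and with no spread between libraries it could not be tested which neighbours in this order differ.

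**Figure D1:**
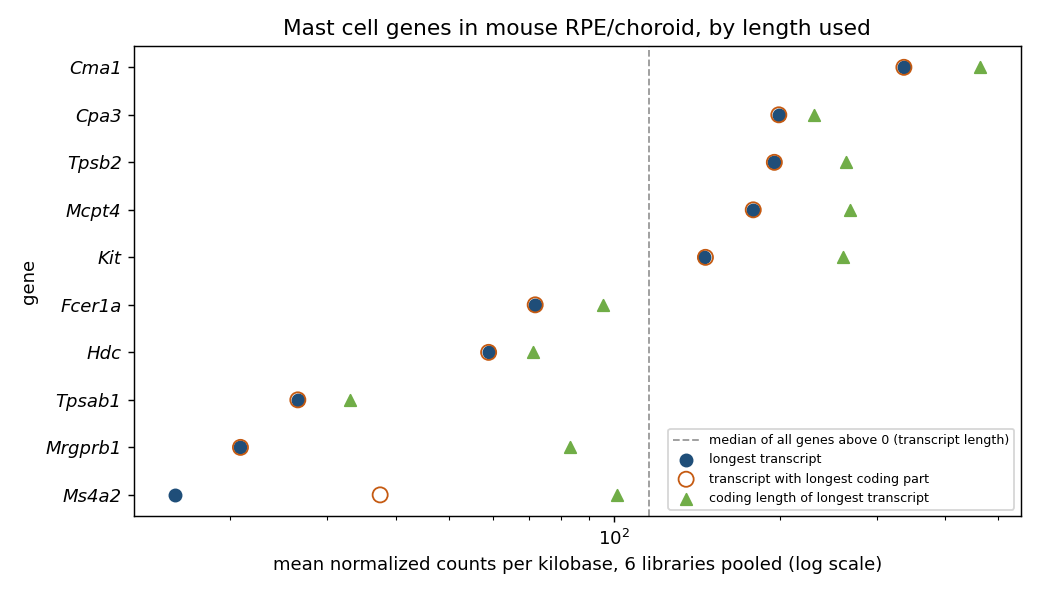
Mean normalized counts per kilobase (log scale, 6 libraries pooled, no error available) of each mast cell gene. Filled circles divide by the longest transcript, open circles by the transcript with the longest coding part and triangles by coding length. The dashed line is the median of all genes above 0 by longest transcript, 115 normalized counts per kilobase. No median by coding length was computed, so triangles cannot be placed against the median gene on their own scale. The granule proteases Cma1, Cpa3, Tpsb2 and Mcpt4 lie to the right of the line under each length, and Ms4a2 moves most between lengths.

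The 2 chymase genes lie in a group of related serine protease genes on chromosome 14 of the mouse build GRCm38. Cma1, which encodes mast cell protease 5, lies at chr14:55941451-55944675 on the minus strand, and its mean exceeded that of 66.6% of the 26681 genes above 0. Mcpt4, which encodes mast cell protease 4, the mouse enzyme with chymotrypsin-like activity closest to human chymase, lies at chr14:56059629-56062313 on the same strand, 114953 bases away. Its mean was 198 normalized counts, above 58.6% of genes. The level of Cma1 per kilobase was 1.88 times that of Mcpt4.

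Between and beside them, the other genes of the group were low or listed at 0. The region chr14:55941451-56262260 holds 15 coding genes, of which 3 reached a mean of 10: Cma1, Mcpt4 and Mcpt2, a chymase of mucosal mast cells, at 16.4 normalized counts. Cma1 and Mcpt4 made up 94.2% of the summed mean of the region, 560 of 594 normalized counts. Mcpt1, the other mucosal mast cell chymase, was at 0.302 normalized counts, Cma2 at 1.08, the basophil protease gene Mcpt8 at 1.38 and the neutrophil cathepsin G gene Ctsg at 1.42. The granzyme genes Gzmb and Gzmc of cytotoxic lymphocytes were at 7.72 and 6.26 normalized counts. Mcpt9, Gzme, Gzmd, Gzmg, Gzmn and Gzmf were listed at 0. Per kilobase, Mcpt4 was 11.6 times Mcpt2 and Cma1 was 21.7 times Mcpt2.

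**Figure D2:**
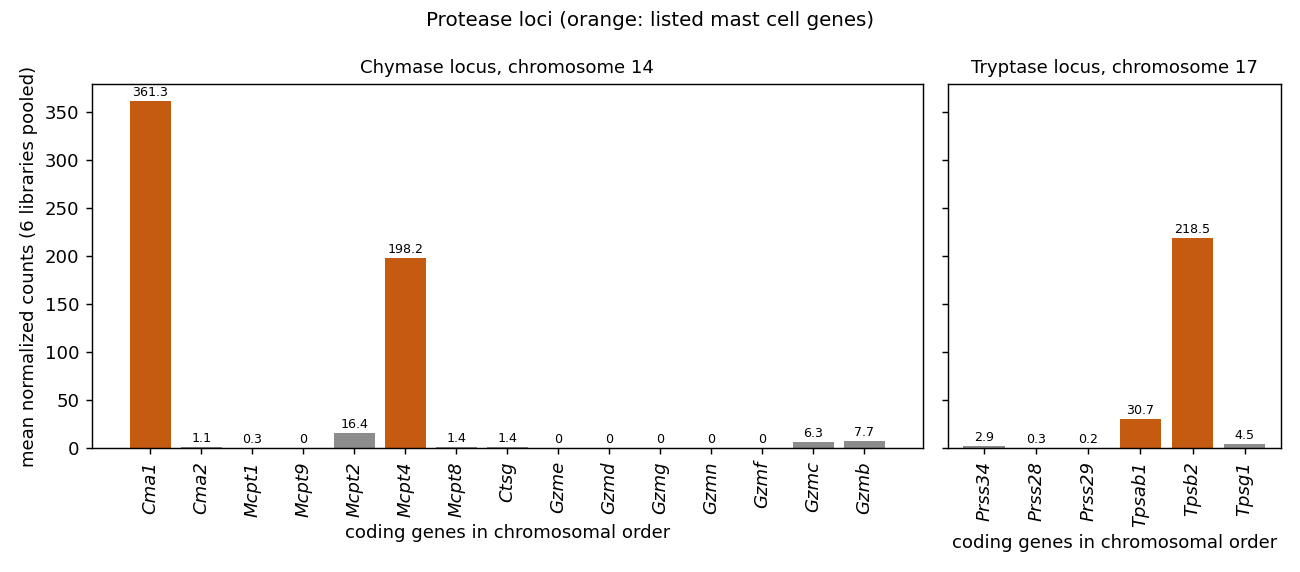
Mean normalized counts (linear scale, 6 libraries pooled, no error available) of the coding genes of the chymase region on chromosome 14 and the tryptase region on chromosome 17, in chromosomal order, with the listed mast cell genes in orange. Cma1 (361) and Mcpt4 (198) stand above the other chymase region genes, none of which exceeds 16.4, and Tpsb2 (219) stands above Tpsab1 (30.7).

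How far such values belong to 1 gene depends on how much sequence the genes share, since the authors' counting divided reads that fit several transcripts. Of the 31-base words in the Cma1 transcript, 89.3% occurred in no other gene, and all 112 shared words were found in the pseudogene Gm48934. For Mcpt4 87.8% of words were its own, and 110 were shared with Cma2. The coding sequences of Cma1 and Mcpt4 were identical at 67.6% of aligned bases, whereas Mcpt4 was 79.4% identical to Mcpt2, 84.0% to Mcpt9 and 86.4% to Mcpt1. Of the low paralogues, 93.3% of words were its own for Mcpt1, 75.7% for Mcpt9 and 40.6% for Cma2. The values of genes with few words of their own, among them Cma2, are uncertain.

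The 2 tryptase genes lie 20742 bases apart on chromosome 17, and Tpsb2 gave most of the signal. Tpsb2, which encodes mast cell protease 6, lies at chr17:25366305-25369098 on the plus strand and had a mean of 219 normalized counts, above 59.8% of genes. Tpsab1, which encodes mast cell protease 7, lies at chr17:25343245-25345562 on the minus strand and had a mean of 30.7 normalized counts, above 42.1% of genes. Per kilobase Tpsb2 was 7.37 times Tpsab1. C57BL/6 mice are known to carry a splice-site change in Tpsab1 and to lack its protein; RefSeq lists the gene as a transcribed pseudogene, and GENCODE as protein coding. The transcript was nevertheless measured here above 10 normalized counts.

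The following stretch of both tryptase mRNAs is shown because it holds their longest identical run and so the part in which their reads are hardest to separate. It covers 99 coding bases, 5′ to 3′, from the spliced GENCODE M21 transcripts (GRCm38). Bases that differ between the genes are in capitals.
Tpsb2: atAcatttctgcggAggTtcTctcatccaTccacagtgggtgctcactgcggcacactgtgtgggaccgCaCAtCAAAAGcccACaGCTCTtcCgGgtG
Tpsab1: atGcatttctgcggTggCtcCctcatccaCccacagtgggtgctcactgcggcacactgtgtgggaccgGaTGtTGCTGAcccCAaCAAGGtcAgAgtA
The Tpsb2 stretch is coding bases 169 to 267, in exon 3 at chr17:25366858-25366925 and exon 4 at chr17:25367046-25367076. The Tpsab1 stretch is coding bases 271 to 369, in exon 2 at chr17:25345050-25345117 and exon 3 at chr17:25344886-25344916. The sequences differ at 24 of the 99 bases, with 0 gaps, and the identical run is 39 bases. Over the whole coding sequence the genes were identical at 76.1% of 827 aligned bases, and they shared 9 words of 31 bases, so that 99.2% of the words of each were its own.

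The rest of the tryptase region was near 0. Tpsb2 and Tpsab1 made up 96.9% of the summed mean of the 6 coding genes at chr17:25298394-25374442, 249 of 257 normalized counts. Tpsg1, a membrane-anchored tryptase gene, was at 4.51 normalized counts, the basophil protease gene Prss34 at 2.89, Prss28 at 0.334 and Prss29 at 0.154. Across both regions, 1 of the 17 listed paralogous proteases reached a mean of 10, Mcpt2, and 6 were listed at 0. The median of the paralogues was 0.298 normalized counts per kilobase, against 109 for the mast cell genes.

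Cpa3, which encodes the zinc carboxypeptidase stored with the chymases, lies at chr3:20215620-20242181 on the minus strand. Its mean of 289 normalized counts was above 63.2% of genes, and all of its words were its own. The carboxypeptidase genes Cpa5, Cpb1, Cpa6, Cpa4 and Cpa1 were each at 1.27 normalized counts per kilobase or less. Among the inhibitors, the serpin gene Serpinb6a was at 2691 normalized counts per kilobase, Slpi at 37.0 and Spink5 at 2.37.

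Hdc lies at chr2:126593667-126619299 on the minus strand and had a mean of 141 normalized counts, above 54.9% of genes. Cpa3 was 3.37 times Hdc per kilobase and 2.04 times Hdc in the undivided mean. Hnmt, which encodes the enzyme that inactivates histamine by methylation, was at 562 normalized counts per kilobase, 9.52 times Hdc. The histamine receptor genes were lower than Hdc, with Hrh1 at 8.83, Hrh3 at 6.30, Hrh2 at 5.48 and Hrh4 at 0.927 normalized counts per kilobase. Of the 6 histamine handling genes with a value, 5 reached a mean of 10, all but Hrh4; Aoc1 was not analysed here.

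All 11 granule and mediator genes reached a mean of 10, with a median of 192 normalized counts per kilobase. Srgn, which encodes the granule proteoglycan core serglycin, was highest at 537, followed by the prostaglandin D synthase gene Hpgds at 333 and the leukotriene pathway gene Alox5ap at 259 normalized counts per kilobase. Slc18a2, which encodes the vesicular transporter that loads histamine and other amines, was at 192, or 3.26 times Hdc per kilobase and 5.15 times in the undivided mean. The list ended with Alox5 at 29.9 and Tph1, a serotonin synthesis gene, at 8.67 normalized counts per kilobase. Most of these genes are also used by macrophages, platelets or neurons, so the share of their signal from mast cells is not known.

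Fcer1a, the chain that binds IgE, lies at chr1:173221284-173227214 on the minus strand and had a mean of 71.6 normalized counts, above 48.9% of genes. Ms4a2, the chain that amplifies the signal, lies at chr19:11615523-11623719 on the minus strand and had a mean of 37.8 normalized counts, above 43.7% of genes. Fcer1g, the signalling chain that other Fc receptors and many myeloid cells also use, was at 493 normalized counts per kilobase, 6.88 times Fcer1a. The distance between Fcer1a and Ms4a2 depended on the transcript chosen for Ms4a2: the ratio was 4.53 with its longest transcript of 2391 bases, of which 375 are coding, and 1.92 with the transcript of 1010 bases that has the longest coding part. With the shorter transcript Ms4a2 was at 37.5 normalized counts per kilobase and took place 8 in the order instead of 10. Per kilobase of the coding part of the longest transcript the direction turned, with Ms4a2 at 100.9 and Fcer1a at 95.5 normalized counts, and the ratio of the undivided means was 1.89.

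All 8 genes of the IgE receptor and its kinases reached a mean of 10, with a median of 100.3 normalized counts per kilobase. The Src family kinase genes Lyn and Fyn were at 247 and 196, Syk at 129, Btk at 53.1 and the adaptor gene Lat at 29.0 normalized counts per kilobase. Except for Fcer1a and Ms4a2 these genes act in many blood cell types.

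Mrgprb1 lies at chr7:48444113-48456342 on the minus strand and had a mean of 87.3 normalized counts, above 50.5% of genes. Its transcript of 4185 bases is long, so that it came after Fcer1a per kilobase although its mean was higher. Mrgprb2, the related receptor through which basic peptides and drugs activate mouse mast cells without IgE, was at 9.60 normalized counts per kilobase, and Mrgprb1 was 2.17 times as high per kilobase and 4.38 times as high in the undivided mean. For Mrgprb1 97.6% of words were its own, and 38 were shared with Mrgprx2, which was at 5.38. All 10 peptide and cytokine receptor genes, a list that includes 2 ligands, reached a mean of 10. Il33, the alarmin that activates mast cells, was highest at 290 normalized counts per kilobase, followed by the thymic stromal lymphopoietin receptor gene Crlf2 at 287 and Csf2rb at 76.3, while Il1rl1, the Il33 receptor gene, was at 31.3.

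Kit lies at chr5:75574916-75656722 on the plus strand and had the highest mean of the 10 genes, 763 normalized counts, above 78.3% of genes. Its transcript of 5241 bases is the longest of the list, and per kilobase it took place 5. Kit is also expressed by melanocytes, which are abundant in the choroid. Tyr, the melanocyte and RPE tyrosinase gene, was 14.5 times Kit per kilobase and Mitf, a transcription factor gene of melanocytes, RPE and mast cells, 6.65 times, so the part of Kit that comes from mast cells cannot be told apart from that of melanocytes. Kitl, which encodes the ligand, was at 791 normalized counts per kilobase, 5.43 times Kit. Of the blood cell transcription factor genes, Tal1 was at 30.0, Gata2 at 28.0 and Gata1 at 1.27 normalized counts per kilobase, and Gata1 alone of this list of 6 had a mean under 10.

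**Figure D3:**
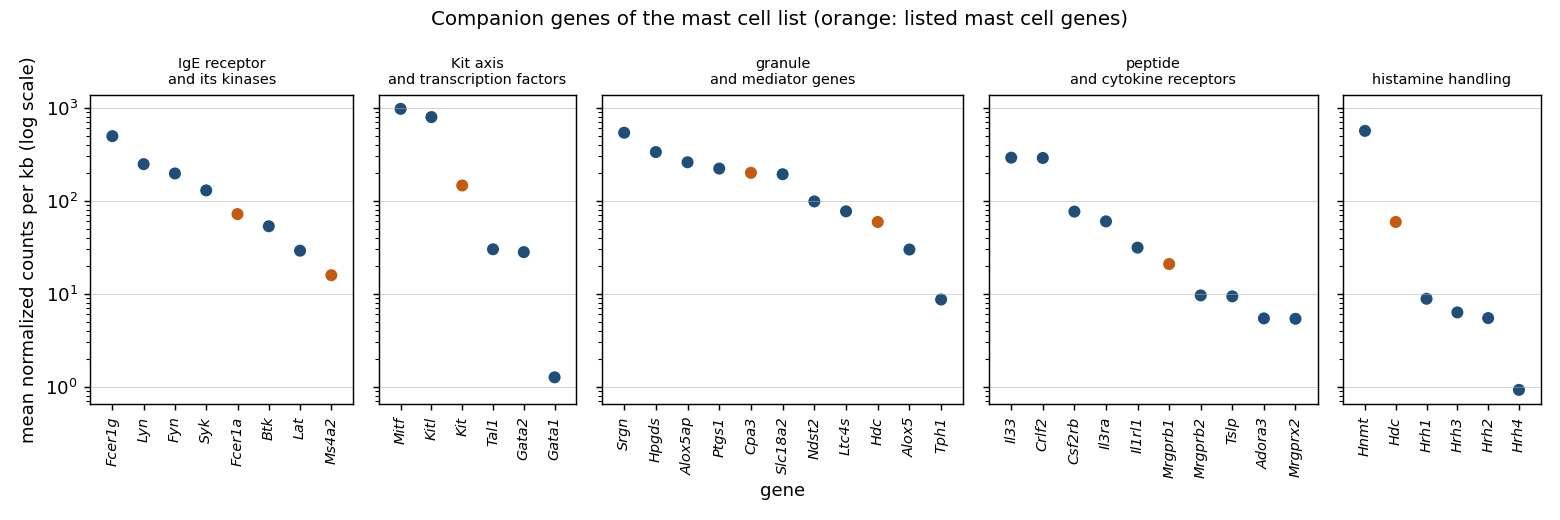
Mean normalized counts per kilobase (log scale, 6 libraries pooled, no error available) of the genes in 5 companion lists, each ordered from high to low, with the listed mast cell genes in orange. Fcer1g (493), Hnmt (562) and Kitl (791) lie above Fcer1a (71.7), Hdc (59.0) and Kit (146) of the same lists.

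Markers of the other cell types in the tissue place these levels. The 7 genes used as mast cell markers, all from the list of 10, had a median of 179 normalized counts per kilobase, from 15.8 for Ms4a2 to 336 for Cma1. They leave out Tpsab1, Hdc and Kit, and the median of all 10 genes was lower, at 109. The 3 basophil markers had a median of 2.37, from 1.65 for Mcpt8 to 15.8 for Cd200r3, which mast cells can also express, and the mast cell median was 75.6 times as high, or 45.9 times with all 10 genes. Basophils share Fcer1a, Ms4a2 and Hdc with mast cells. Their protease genes Mcpt8 and Prss34 both had means under 10. Per kilobase, Cd200r3 was level with Ms4a2 by its longest transcript, but below the 37.5 of Ms4a2 by the transcript with the longest coding part. In the undivided mean Cd200r3 was at 23.4 and Ms4a2 at 37.8. The part of basophils in the shared genes was not tested. The T and NK cell markers had a median of 8.35, from 3.32 for Klrb1c to 36.0 for Cd3g, and the B cell markers of 16.0, with Cd79b highest at 65.4. The neutrophil markers had a median of 84.0 normalized counts per kilobase, a midpoint between S100a8 at 168 and Ly6g at 0.315 that no marker holds. S100a9, above the mast cell median, was at 215 and Mpo was listed at 0.

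Medians of the resident cell types were higher. The macrophage median was 752 normalized counts per kilobase, from 34.4 for Lyve1 to 1050 for Csf1r, or 4.20 times the mast cell median. The endothelial median was 499, from 257 for Cdh5 to 1187 for Plvap, or 2.79 times. These ratios depended on the scale and the list: without division by length they were 10.4 for macrophages and 11.7 for endothelium, which reverses their order, and per kilobase against all 10 genes they were 6.92 and 4.59. Fibroblast markers had a median of 5742 normalized counts per kilobase, from 800.5 for Pdgfra to 24704 for Dcn, RPE markers of 14034, from 33.6 for Best1 to 83745 for Ttr, and melanocyte markers of 15241, from 409 for Sox10 to 40484 for Dct. The melanocyte markers other than Sox10 are pigment genes that the RPE also expresses, so this median does not stand for melanocytes alone. The median RPE marker was thus well above the median mast cell marker, although Best1 was far below the other RPE genes. Rod photoreceptor markers, which belong to the neural retina, had a median of 3804, with Pde6a lowest at 1596. The samples thus also held rod transcripts, although the methods describe taking off the neural retina before collection. In bulk tissue fewer cells of a type and less RNA per cell cannot be told apart, so these ratios are not ratios of cell numbers.

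**Figure D4:**
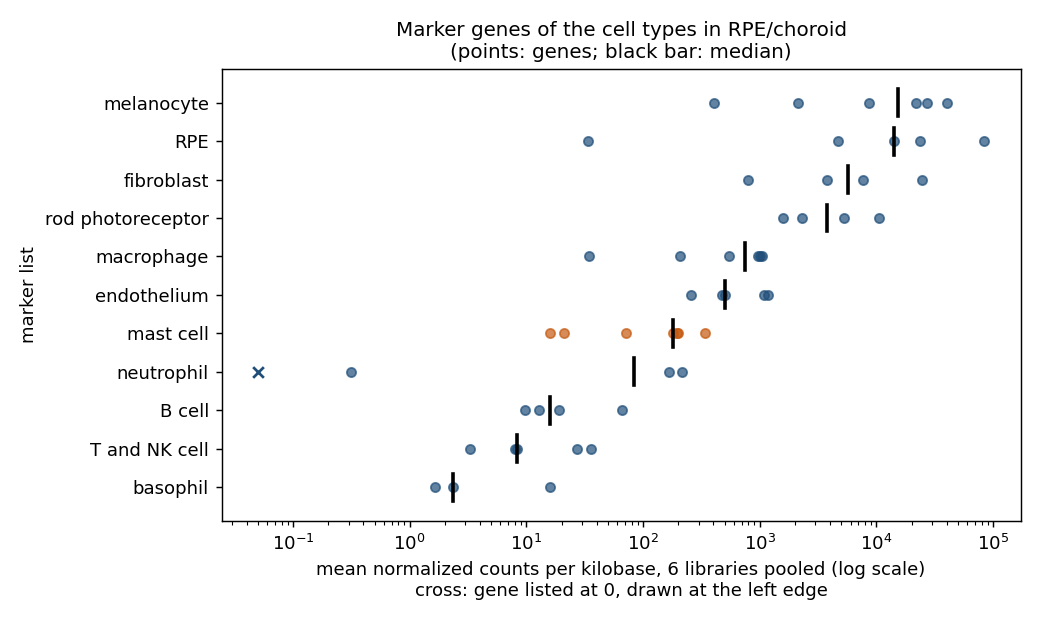
Mean normalized counts per kilobase (log scale, 6 libraries pooled, no error available) of marker genes for 11 cell types, with a black bar at each median and a cross for a gene listed at 0. The mast cell median (179, orange points) lies between the macrophage (752) and endothelial (499) medians above and the neutrophil (84.0), B cell (16.0), T and NK cell (8.35) and basophil (2.37) medians below, while single genes of these lists overlap.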

How the data were processed

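Per the labels and the study's methods, RPE/choroid total RNA was depleted of ribosomal RNA and sequenced with a stranded kit. The authors trimmed and filtered reads by BBDuk, mapped them to Ensembl GRCm38 transcripts using STAR, quantified them with Sailfish, converted the abundances to normalized counts, and ran DESeq2 on the 2 ages. The values used here are the deposited mean, a normalized signal over all 6 libraries, with 0 columns that name a sample. The table's other columns hold the authors' comparison of aged and young mice (log2 fold change, its standard error, statistic and p-values), and they were not used. The planned comparison of ages needed values per library, so it could not be run.

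Means were divided by the length, per 1000 bases, of the longest GENCODE M21 transcript (GRCm38) that is linked to a curated RefSeq mRNA, with coding lengths from the same transcript. Across 14934 genes with a mean of 10 or more and a length, log2 mean rose with log2 length with a slope of 0.67 (Pearson r 0.28 across genes, which are not independent replicates), which does not settle whether the conversion from Sailfish abundances had already divided by length. The table sums to 19192071 normalized counts; 7243 genes are listed at 0. A transcript's own words are its 31-base words found in no other gene. Pairs of coding sequences were aligned with Biopython 1.88; other steps used Python 3.11.15 and numpy 2.4.6, and scripts were tested on simulated data. Symbols were matched through RefSeq synonyms where the table used older ones.

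All 10 genes, the companion lists (highest genes, and those a sentence turns on) and the extremes of each marker list were named; a few listed genes are not reported here. Members and lists were chosen with earlier results of these data known.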

Additional observations from a re-analysis of the deposited data

How the results depend on the processing

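The median level of the 10 mast cell genes was 108.7 normalized counts per kilobase, 169.7 normalized counts without division by length, 165.8 per kilobase of coding length, and 109.1 per kilobase of the transcript with the longest coding part, a choice added after seeing the data. The order of the genes moved more: 10 of 10 changed place without division by length, 8 of 10 with coding length and 3 of 10 with the longest coding part. The median percentile of the genes was 56.7 among all genes above 0, 35.7 among genes with a mean of at least 10 and 48.1 on the level per kilobase. The summed level was 1249.5 normalized counts per kilobase, 1104 per kilobase without Kit and 2199 normalized counts without division by length, and 108.7 as a median in place of a sum. Ratios of the marker medians without division by length or against all 10 genes, given with the levels, were added after seeing the data. No paired analysis was possible because young and aged libraries are merged into 1 mean per gene. Likewise the comparison of ages and its alternatives were not run: another count model or pseudocount, no filter on low values, leaving out each replicate and the replicate number as a block. Without values per library, no interval can be given for any level, and it could not be examined whether 1 library decides a mean. Depth per library is also unknown here.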
